A study of Bos taurus with 3 samples.

Results

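SREBF1, INSIG1 and PPARGC1A are regulators of fat and sterol synthesis, and their tag counts were followed through the end of pregnancy and the start of lactation in the bovine mammary gland. They were chosen by symbol, as the last name in brackets in the deposited gene descriptions, and are 3 of the 9154 genes listed in at least 1 library. Each of them is listed under a single accession, NM_001113302.1 for SREBF1, NM_001077909.1 for INSIG1 and NM_177945.3 for PPARGC1A. They are set beside FASN and SCD, enzyme genes of milk fat synthesis.

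Mammary tissue came from 18 Holstein cows in their second parity, 6 different cows at each of 3 time points: 35 days before parturition (−35 d), 7 days before parturition (−7 d) and 3 days after parturition (+3 d). RNA was isolated from a pool of the 6 tissues of each time point, and 1 digital gene expression library was sequenced per pool. No treatment or mutation was applied, so the groups differ by time relative to parturition and by the cows themselves, which cannot be told apart. The step from −35 d to −7 d is called stage I and the step from −7 d to +3 d stage II.

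SREBF1 encodes SREBP-1, a transcription factor that activates genes of fatty acid synthesis and, in the mammary gland, is regarded as a main activator of milk fat genes. SREBP proteins are made as membrane precursors: the carrier protein SCAP takes them from the endoplasmic reticulum to the Golgi, where the proteases encoded by MBTPS1 and MBTPS2 release the active part, whereas INSIG proteins hold SCAP and its cargo back when sterols are plentiful. INSIG1 is itself a target of SREBP, and PPARGC1A encodes PGC-1α, a coactivator of PPARG and other nuclear receptors best known for driving mitochondrial and oxidative genes. FASN makes fatty acids de novo and SCD puts a double bond into them. Because the SREBP proteins are controlled by cleavage, the level of their mRNA is not a measure of their activity.

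Digital gene expression counts short sequence tags next to CATG sites, and levels are given as TPM, the tags of a gene per 1000000 clean tags of its library, with no correction for gene length. The libraries held 5593237 to 5914422 clean tags, so 3 tags, taken as the upper limit that a count of 0 allows, correspond to 0.507 to 0.536 TPM. A gene was called differentially expressed at a false discovery rate (FDR) of at most 0.001 in the Audic-Claverie test and a difference of at least 2-fold. With 1 library per time point there is no replicate check, the test compares libraries and not conditions, and it covers counting error only; this holds also for the intervals, since PCR copies of a tag are not separate molecules. The 6 milk protein genes CSN1S1, CSN2, CSN3, CSN1S2, LALBA and PAEP, which mark secretory epithelium, held 0.349%, 4.15% and 23.1% of the clean tags at −35 d, −7 d and +3 d. All of them were detected in each library, as were 7 of 8 luminal epithelial markers. TPM values are shares of that total, and the log2 ratios of the 5902 genes that averaged 5 TPM or more had a median of −0.16 in stage I, −0.34 in stage II and −0.52 from −35 d to +3 d. Scaling by the trimmed mean of M-values (TMM), which centres most genes near 0, raised every log2 ratio by 0.19, 0.31 and 0.50.

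SREBF1 and INSIG1 were upregulated before parturition, and both had lower counts again after it while staying above their first level. The tag counts of SREBF1 at −35 d, −7 d and +3 d were 343, 824 and 538. These counts correspond to 58 TPM (95% Poisson interval 52 to 64.5), 147 TPM (137 to 158) and 92 TPM (84.4 to 100). The 3 intervals did not overlap, with −7 d the highest and −35 d the lowest. By level SREBF1 moved from rank 1361 among the listed genes at −35 d to rank 396 at −7 d and stood at rank 554 at +3 d.

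INSIG1, the retention protein of the same pathway, had 238, 531 and 380 tags at −35 d, −7 d and +3 d. Its level was 40.2 TPM (35.3 to 45.7), 94.9 TPM (87 to 103) and 65 TPM (58.6 to 71.9). The order of the libraries was that of SREBF1, again without overlap of the intervals. Its rank went from 2009 to 688 and then to 852.

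PPARGC1A was near the detection limit in all 3 libraries, with 4, 9 and 6 tags in time order. This is 0.676 TPM (0.184 to 1.73), 1.61 TPM (0.736 to 3.05) and 1.03 TPM (0.377 to 2.23), and all 3 intervals overlap. It ranked 7874, 6986 and 7218, among the genes with the fewest tags.

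The paralogs of the regulators were weakly detected or not listed. SREBF2, whose product SREBP-2 acts mainly on sterol genes, is listed under a predicted accession with 2 tags at −35 d and none at −7 d and +3 d, where the limit of 3 tags applies. INSIG2 and PPARGC1B are not listed in any library. A gene without a suitable CATG site or with tags shared with other genes would not be listed, so nothing follows on their expression.

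**Figure D1:**
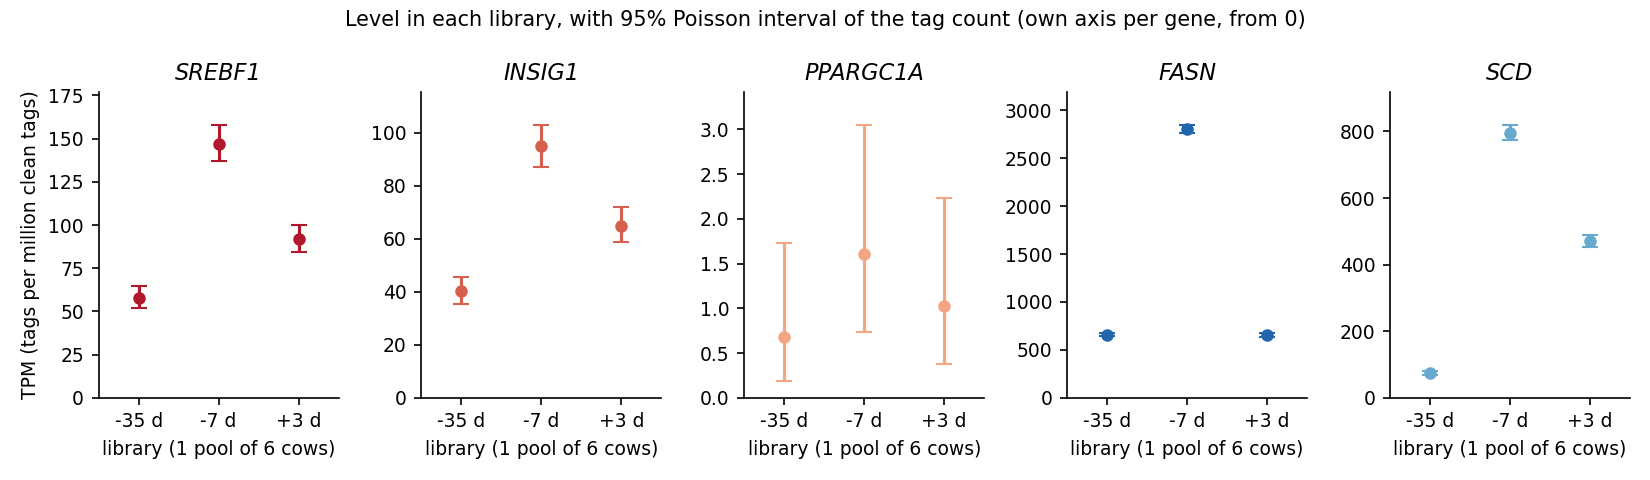
Level of the 3 regulators and of FASN and SCD in TPM (vertical axis, own scale per gene, from 0) in the libraries of −35 d, −7 d and +3 d; points are 1 pool of 6 cows each and bars the 95% Poisson interval of the tag count. SREBF1, INSIG1 and SCD are highest at −7 d and keep part of the difference at +3 d. FASN is back at its first level under this scaling to clean tags, but not under TMM. The intervals of PPARGC1A overlap.

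In stage I, 2 of the 3 regulators were called higher, against 2.62% of the 8967 genes tested, and none was called lower, against 6.45%. SREBF1 was upregulated 2.54-fold (log2 ratio 1.34, 95% interval 1.16 to 1.53, Audic-Claverie FDR 1.77e-50). INSIG1 was upregulated 2.36-fold (log2 ratio 1.24, 1.01 to 1.47, FDR 7.96e-29). Both calls rest on counting error: when a biological coefficient of variation of 0.2 was assumed in edgeR's exact test, the FDR was 0.0478 for SREBF1 and 0.0836 for INSIG1, and neither was called, nor at a 3-fold threshold. Of the 5902 genes with at least 5 TPM, 118 had a higher log2 ratio than SREBF1 and 148 a higher one than INSIG1. The log2 ratio of PPARGC1A was 1.25, close to both, but its interval ran from −0.59 to 3.40 and its FDR was 0.248, so that a change of PPARGC1A was not detectable at this depth. In linear terms its counts allow anything from a ratio of 0.664 to one of 10.6.

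In stage II none of the 3 regulators was called, where 3.12% of 8784 genes were called higher and 10.4% lower. The log2 ratio of SREBF1 was −0.68 (−0.84 to −0.52, Audic-Claverie FDR 1.16e-16), a level 1.6-fold lower that passed the FDR but not the 2-fold threshold. For INSIG1 it was −0.55 (−0.74 to −0.35, FDR 8.98e-08), or 1.46-fold lower. Against the median of −0.34 over all genes these differences were small: 29.7% of genes had a lower log2 ratio than SREBF1 and 37.9% a lower one than INSIG1. With TMM scaling the log2 ratios were −0.37 for SREBF1 (FDR 1.85e-05) and −0.24 for INSIG1 (FDR 0.0374). With the tags on listed genes as totals SREBF1 was called lower (−1.04, FDR 3.66e-38) and INSIG1 was not (−0.90). PPARGC1A had a log2 ratio of −0.65 (−2.42 to 1.005, FDR 0.51). Stage I and stage II share the −7 d library, so their ratios are not independent of each other.

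From −35 d to +3 d none of the 3 was called under the scaling by clean tags, where 2.33% of 8988 genes were called higher and 16.3% lower. SREBF1 was 1.59-fold higher at +3 d (log2 ratio 0.67, 0.47 to 0.87, Audic-Claverie FDR 9.52e-11) and INSIG1 1.62-fold higher (log2 ratio 0.69, 0.45 to 0.93, FDR 2.39e-08). This call depends on the scaling: under TMM the log2 ratios were 1.16 and 1.19, and both genes were called higher. Over all 8988 genes tested, 560 were called higher under TMM. Among all genes 361 had a higher log2 ratio than SREBF1 and 344 a higher one than INSIG1, of 5902. The log2 ratio of PPARGC1A was 0.60 (−1.47 to 2.87, FDR 0.616).

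**Figure D2:**
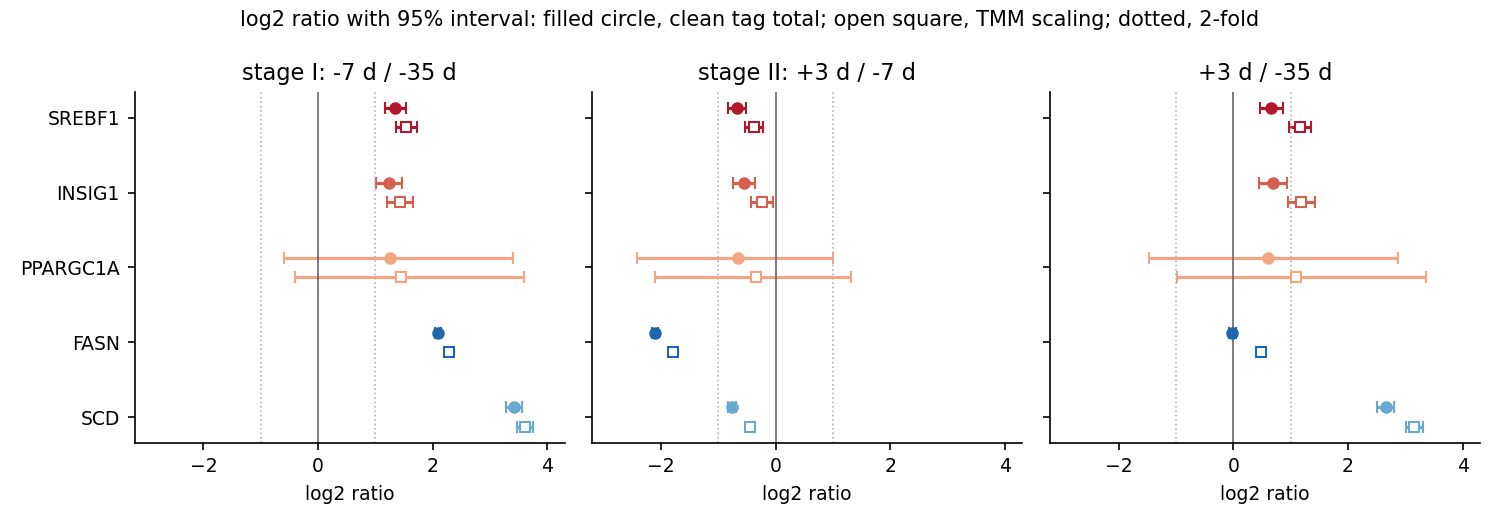
Log2 ratio (horizontal axis) of the regulators, FASN and SCD in stage I, stage II and from −35 d to +3 d, with 95% counting intervals; filled circles are scaled to clean tags, open squares by TMM, and dotted lines mark 2-fold. SREBF1 and INSIG1 lie beyond 2-fold in stage I under both scalings, and from −35 d to +3 d they pass it under TMM, at 1.16 and 1.19, but not under clean tags.

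Whether the regulators moved alike was read from the ratio of their tags, which does not depend on the scaling of a library. The ratio of SREBF1 to INSIG1 tags changed by a factor of 1.08 in stage I (exact 95% interval 0.879 to 1.32), 0.912 in stage II (0.766 to 1.09) and 0.982 from −35 d to +3 d (0.791 to 1.22). All 3 intervals include 1, so a difference in course between SREBF1 and INSIG1 was not detected, and differences of over about 1.32 times in stage I lie outside its interval. For the ratio of SREBF1 to PPARGC1A tags the factor in stage I lay between 0.239 and 3.86, which leaves the course of PPARGC1A undetermined. These are 27 intervals in all over the pairs and comparisons, without adjustment for their number.

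FASN rose more than SREBF1 and INSIG1 and fell again after parturition. It had 3906, 15686 and 3817 tags, or 660, 2804 and 653 TPM. It was called higher in stage I (4.25-fold, log2 ratio 2.09, 2.04 to 2.14) and lower in stage II (4.3-fold, log2 ratio −2.10, −2.15 to −2.05). From −35 d to +3 d its log2 ratio was −0.02 (−0.08 to 0.05, Audic-Claverie FDR 0.692) and turned positive, 0.48, under TMM scaling, without being called.

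SCD rose the most of the 5 genes and kept more of its rise than FASN. It had 442, 4454 and 2757 tags, or 74.7, 796 and 472 TPM. In stage I it was upregulated 10.7-fold (log2 ratio 3.41, 3.27 to 3.56), and from −35 d to +3 d it was called 6.31-fold higher. In stage II its log2 ratio was −0.76 (−0.82 to −0.69, Audic-Claverie FDR 8.94e-105), which missed the 2-fold threshold. With the tags on listed genes as totals it was called lower (−1.11).

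In TPM, SREBF1 gained 89.3 in stage I and then lost 61.9% of that gain by +3 d, and INSIG1 gained 54.7 TPM and lost 54.7% of the gain. SCD lost 45% of a gain of 722 TPM, whereas FASN lost 100% of a gain of 2144 TPM. For PPARGC1A the same share was 62.5% of 0.933 TPM, on counts too low to be read. These shares depend on the scaling, and with TMM totals, an alternative chosen after the values had been seen, they were 34.6% for SREBF1, 24.2% for INSIG1, 29.1% for SCD and 89.7% for FASN. FASN lost the largest share of these 4 genes under both scalings, while the order of INSIG1 and SCD changed.

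SREBF1 and INSIG1 parted from FASN in both stages. Per 100 FASN tags there were 8.78, 5.25 and 14.1 SREBF1 tags in time order. The ratio thus changed by a factor of 0.598 in stage I (0.524 to 0.684), 2.68 in stage II (2.39 to 3.01) and 1.61 over both (1.39 to 1.86), and no interval includes 1. INSIG1 had 6.09, 3.39 and 9.96 tags per 100 FASN tags, with factors of 0.556 (0.474 to 0.653), 2.94 (2.56 to 3.38) and 1.63 (1.38 to 1.94). Both regulators thus rose less than FASN before parturition and lay closer to their −7 d level after it.

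Beside SCD, SREBF1 and INSIG1 parted clearly in stage I. Per 100 SCD tags there were 77.6, 18.5 and 19.5 SREBF1 tags in time order. The factor was 0.239 in stage I (0.203 to 0.281) and 1.06 in stage II (0.935 to 1.19), so SREBF1 and SCD were not separated in stage II. INSIG1 had 53.8, 11.9 and 13.8 tags per 100 SCD tags. Its factor was 0.222 in stage I (0.184 to 0.267) and 1.16 in stage II (1.002 to 1.33), which just excludes 1. The factors from −35 d to +3 d were 0.252 (0.212 to 0.299) for SREBF1 and 0.256 (0.211 to 0.311) for INSIG1. PPARGC1A against FASN had intervals that include 1 in all 3 comparisons. Against SCD its stage I factor of 0.223 had an interval up to 0.997, on 4 and 9 tags.

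**Figure D3:**
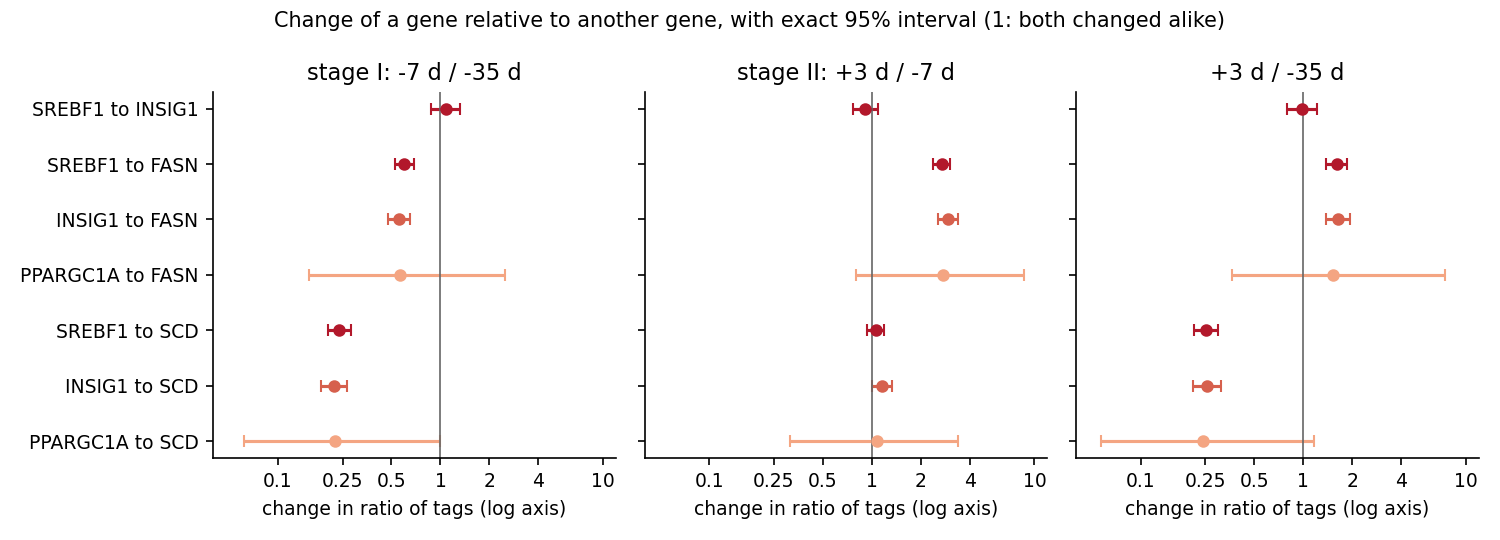
Factor by which the tag ratio of a pair of genes changed (horizontal log axis), with exact 95% intervals, in stage I, stage II and from −35 d to +3 d; the vertical line at 1 marks equal change. The intervals of SREBF1 to INSIG1 include 1 in each panel. The ratios of SREBF1 and INSIG1 to FASN fall below 1 in stage I and exceed it in stage II at 2.68 and 2.94. Their ratios to SCD are near 0.239 and 0.222 in stage I.

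The other genes of SREBP processing did not share the stage I rise of SREBF1 and INSIG1. Of the 10 genes of this list 8 are listed. The only calls in stage I were SREBF1 and INSIG1 themselves, where 2.62% of all genes were called higher and 6.45% lower. SCAP, the carrier of SREBP, had 189, 135 and 104 tags (32, 24.1 and 17.8 TPM) with a stage I log2 ratio of −0.40 (Audic-Claverie FDR 0.0344). MBTPS1, the first protease, had 571, 370 and 218 tags. It was called lower from −35 d to +3 d (log2 ratio −1.37, Audic-Claverie FDR 3.95e-35), a call that was lost under TMM scaling. This is 1 of the 8 listed genes, against 16.3% of all genes called lower. MBTPS2, the second protease, had 25, 22 and 23 tags. The median over the 6 genes with at least 5 TPM, the 2 regulators included, was −0.42 in stage I, beside −0.16 over all genes.

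The ratio of tags to SREBF1 was then formed for every gene with at least 5 TPM, a comparison chosen after the values had been seen, with unadjusted 95% intervals. In stage I this ratio was lower at −7 d for 94.5% of 5900 genes and higher for 0.729%. SCAP, MBTPS1 and SPRING1 (a gene needed for SREBP processing) all had lower ratios, with factors of 0.298, 0.27 and 0.29. In stage II the ratio was lower for 12.7% of 5901 genes and higher for 43.8%. SPRING1 (1.69, 1.24 to 2.31) was among the higher ones, and SCAP, MBTPS1 and INSIG1 had intervals that include 1.

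Of 18 genes of fatty acid synthesis 14 are listed, and 4 were called higher in stage I, FASN, SCD, ACSS2 and THRSP, against 2.62% of all genes. None was called lower, against 6.45%. Under TMM scaling FADS2, a desaturase of polyunsaturated fatty acids with 7, 27 and 8 tags, was also called higher (log2 ratio 2.22, Audic-Claverie FDR 0.000312). With it 5 of the 14 genes were called higher under TMM, against 378 of 8967 over all genes. ACSS2, which makes acetyl-CoA from acetate, had 179, 441 and 189 tags (log2 ratio 1.38, Audic-Claverie FDR 2.3e-28). THRSP, a lipogenic protein known as Spot 14, had 116, 341 and 16 tags (log2 ratio 1.64, FDR 3.42e-28). The stage I change of the tag ratio to SREBF1 was 1.03 for ACSS2 (0.823 to 1.28) and 1.22 for THRSP (0.952 to 1.58), so neither was separated from SREBF1 in stage I. Both were selected as called higher, as SREBF1 was, so values near 1 follow in part from that selection. Of the 12 genes with at least 5 TPM, 2 had a higher ratio, FASN and SCD, against 0.729% of all genes at that level. A lower ratio was found for 7, against 94.5%. ACLY and ACACA, the enzymes that supply cytosolic acetyl-CoA and malonyl-CoA, were not called, with 134, 152 and 94 tags and with 11, 14 and 16 tags.

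In stage II 4 of the 14 fatty acid genes were called lower, against 10.4% of all genes, and none higher, against 3.12%. Besides FASN these were THRSP (log2 ratio −4.48, Audic-Claverie FDR 4.11e-82), ACSS2 (−1.29, FDR 1.67e-25) and SCD5, a second desaturase with 275, 264 and 98 tags (−1.49, FDR 2.34e-19). The tag ratio to SREBF1 was lower at +3 d for 4 of the 12 genes with at least 5 TPM, against 12.7% of all genes at that level. It was higher for 2, against 43.8%. The lower ones were the 4 called genes, as follows largely from their selection for a 2-fold difference, with factors of 0.373 for FASN, 0.0719 for THRSP, 0.657 for ACSS2 and 0.569 for SCD5. ELOVL1 (1.7) and ACSS1 (1.66), with 315, 365 and 406 tags and 146, 164 and 178 tags, had higher ratios. Under TMM scaling ACSS2 lost its stage II call, and the median of the 12 genes with at least 5 TPM moved from −0.75 to −0.45. From −35 d to +3 d, SCD was the only member of the list called higher, against 2.33% of all genes. SCD5, ELOVL5 and THRSP, 3 of 14, were called lower, against 16.3% of all genes and thus near that share. Of these 3 genes THRSP alone was called under TMM, where 444 of 8988 genes were called lower.

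Of 24 sterol genes 23 are listed, and 4 were called higher in stage I, among them FDPS, SQLE and HSD17B7, against 2.62% of all genes. SQLE, the squalene epoxidase, had 667, 1515 and 424 tags (113, 271 and 72.5 TPM; log2 ratio 1.26, Audic-Claverie FDR 4.06e-84). HSD17B7 had 326, 767 and 303 tags and FDPS 185, 405 and 196, with log2 ratios of 1.31 and 1.21. The stage I change of their tag ratio to SREBF1 was 0.945 for SQLE (0.807 to 1.11), 0.979 for HSD17B7 (0.814 to 1.18) and 0.911 for FDPS (0.731 to 1.14). Values near 1 follow in part from the selection of genes called higher, as SREBF1 was. Of the 19 sterol genes with at least 5 TPM, 15 had lower ratios, against 94.5% of all genes.

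In stage II 9 of the 23 sterol genes were called lower, against 10.4% of all genes, and none higher, against 3.12%. Those called lower included ACAT2, MVK, MVD, IDI1, FDPS, SQLE, CYP51A1 and HSD17B7. Their log2 ratios lay between −1.90 for SQLE and −1.11 for FDPS, beside −0.68 for SREBF1 and −0.55 for INSIG1. The tag ratio to SREBF1 was lower at +3 d for 9 of the 19 sterol genes with at least 5 TPM, against 12.7% of all genes at that level. It was higher for 3, against 43.8%. Under TMM scaling 5 calls remained, ACAT2, MVD, SQLE, CYP51A1 and HSD17B7. These are 5 of 23 genes, against 430 of 8784 over all genes called lower under TMM. From −35 d to +3 d, ACAT2 and CYP51A1, 2 of 23, were called lower, below the share of 16.3% over all genes. CYP51A1 alone was called under TMM, where 444 of 8988 genes were called lower. The median over the 19 sterol genes with at least 5 TPM was 0.36 in stage I and −0.90 in stage II, beside −0.16 and −0.34 over all genes.

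**Figure D4:**
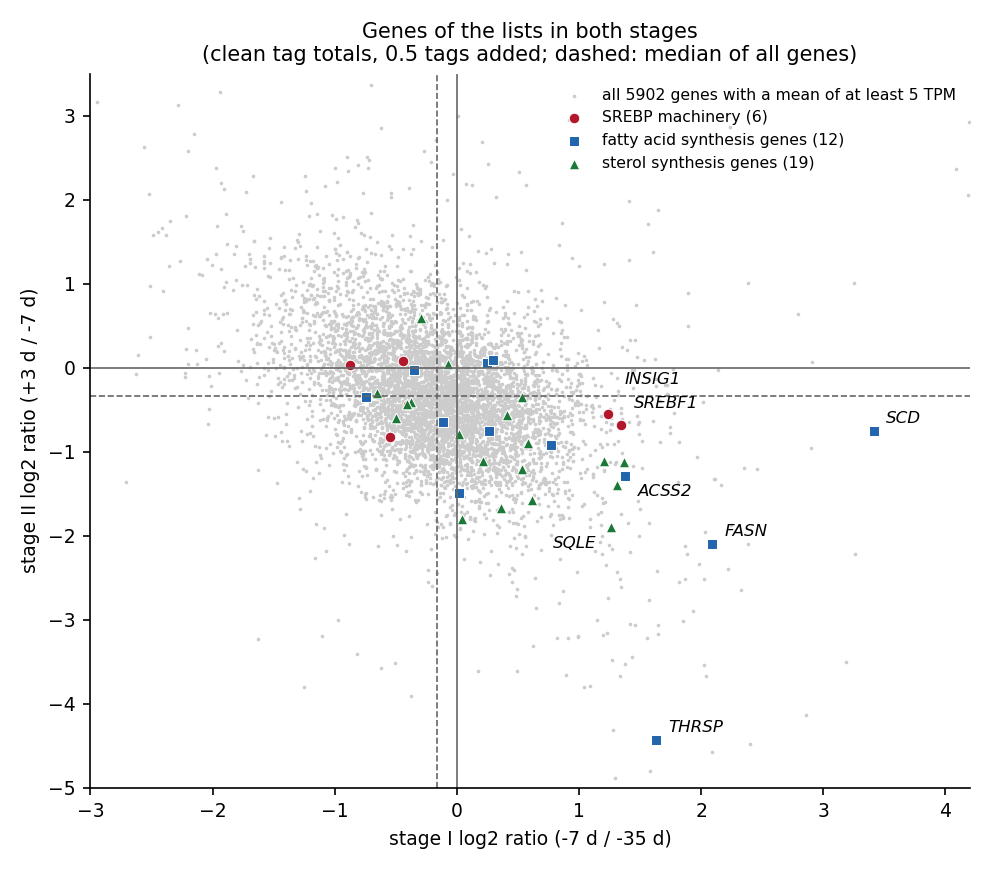
Log2 ratio in stage I (horizontal axis) and in stage II (vertical axis) of all 5902 genes that averaged 5 TPM or more (grey, axes cut at the edges), with 6 genes of SREBP processing, 12 of fatty acid synthesis and 19 of sterol synthesis marked; dashed lines are the medians of all genes. SREBF1 and INSIG1 lie at the right, near ACSS2 in stage I but above it in stage II, while the other genes of SREBP processing lie left of 0. The stages share the −7 d library.

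Of 30 partners and targets of PPARGC1A, PPARGC1A included, 14 are listed, so much of its network was not measured. In stage I NR1H3, the liver X receptor alpha, was called lower with 75, 27 and 59 tags (log2 ratio −1.39), 1 of 14 genes against 6.45% of all genes. PPARG, the nuclear receptor that PPARGC1A was first known to coactivate, had 17, 24 and 57 tags, its highest library being +3 d and not −7 d. It was called higher from −35 d to +3 d (log2 ratio 1.76), 1 of 14 genes against 2.33% of all genes. PDK4, which spares glucose by blocking pyruvate oxidation, had 714, 435 and 898 tags, with −7 d the lowest. No gene of this list was called in stage II, where 3.12% of all genes were called higher and 10.4% lower. Under TMM scaling PPARG, NR1H3 and PDK4 were called higher there, 3 of the 13 genes tested. Over all 8784 genes tested, 516 were called higher under TMM and 274 under clean tags. The targets CPT1B and ACADM, genes of fatty acid oxidation, had 47, 61 and 39 tags and 371, 232 and 332 tags and were not called. The median of the 8 genes with at least 5 TPM was −0.40 in stage I and 0.28 in stage II.

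The genes nearest in course to each regulator were found over the 3 libraries, as those with the smallest value of the larger absolute difference in the stage I and stage II log2 ratios. For SREBF1 they were FBXL2 (0.0642), LRRTM3 (0.0653), PHPT1 (0.0758), NFIX (0.0835) and IVD (0.0841), of 5901 genes. For INSIG1 they were IVD (0.0483), PHKG2 (0.0555), C8G (0.0592), UQCRC2 (0.0952) and CHCHD4 (0.0985). The nearest to PPARGC1A, PHKG2, CMTM7, CHCHD4, ANP32A and INSIG1, rest on its 4, 9 and 6 tags and have no weight. IVD encodes an enzyme of leucine breakdown, PHKG2 a subunit of phosphorylase kinase, and UQCRC2 a subunit of respiratory complex III. The distances are smaller than the counting intervals of the log2 ratios, so the order within these lists is not resolved. With genes of at least 20 TPM alone, 2 of the 5 genes named for SREBF1 and 4 of the 5 for INSIG1 were found again.

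Markers of other cell types also differed between the pools. The summed level of 7 of 8 listed adipocyte markers was 243 TPM at −35 d, 175 TPM at −7 d and 453 TPM at +3 d, with LIPE not listed and PLIN4 at 0 tags at −7 d and +3 d. ADIPOQ, which defines adipocytes, had 30, 27 and 16 tags, and LPL, which secretory epithelium also expresses, had 208, 214 and 1007. The adipocyte sum was carried mainly by FABP4, with 904, 511 and 1428 tags, and its members did not move together: CIDEC had 148, 147 and 91 tags. Summed levels of luminal epithelial markers were 2246, 1571 and 1419 TPM with KRT18 not listed. Those of myoepithelium and smooth muscle were 768, 415 and 749, of macrophages 137, 68.5 and 150, and of T cells 146, 96.9 and 97.3. Endothelial markers summed to 25.5, 16.8 and 16.8 with VWF not listed. All these sums are scaled to clean tags, and TMM raised every stage II log2 ratio by 0.31. Members were mixed here too. Of the 6 luminal markers with at least 5 TPM, 1 had a positive log2 ratio in stage I and 3 in stage II. Of the 5 macrophage markers at that level 1 was positive in stage I, and of the 4 T cell markers 2 were positive in stage II. The 6 milk protein genes summed to 3488, 41525 and 231338 TPM and were called higher in each comparison. The part of these markers in the levels of SREBF1 and INSIG1 was not tested, and in pooled tissue a larger number of cells of a type and more RNA per cell cannot be told apart.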

How the data were processed

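Digital gene expression libraries of bovine mammary tissue, 1 per time point, were analysed from the deposited gene tables. The authors cleaned 21-base tags (adaptors, unknown bases and tags with 1 copy removed), matched them to transcripts of the genome UMD 3.1 with at most 1 mismatch, and summed the unambiguous tags of each gene; these are the deposited counts. The deposited TPM values are those counts scaled to the clean tags of the library, without correction for length, and differed from recomputed values by at most 0.0050 TPM. The copy numbers of single tags, also deposited counts, gave the clean tag totals: 5914422, 5593237 and 5845821 at −35 d, −7 d and +3 d. Tags on listed genes numbered 2397173, 2314092 and 3097468. The tables were joined by accession to 9154 genes, and a gene not listed in a library was given 0 tags. For names, 7905 accessions were matched to RefSeq (ARS-UCD2.0).

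Pairs of libraries were compared with the two-sided Audic-Claverie test of the paper, Benjamini-Hochberg adjusted over all genes with a tag in either library, with 0 TPM set to 0.01 TPM for the ratio. Intervals were exact (Poisson for levels, binomial for ratios, conditional for changes in a tag ratio). No ratio is given for a gene with at most 3 tags in a library. Named were the 3 regulators, FASN and SCD, the paralogs, up to 4 called genes of each list per stage and direction and, for each regulator, the 5 genes nearest in course (0.5 tags added). Other genes were named after their values were seen. The members and lists were chosen with earlier results of these data known. Alternatives were TMM, DESeq2 size factors, totals without genes over 1% of the clean tags or from listed genes only, Fisher's test, the exact test of edgeR at a biological coefficient of variation (BCV) assumed as 0.2 or 0.4, a 3-fold threshold, a minimum of 5 TPM and 0.5 added tags. The Audic-Claverie test and the binomial interval were checked on simulated Poisson counts, which hold counting error but no spread between cows. Tag sequences and promoters were left out, and a few list members, though counted, are not reported by name. Tools were Python 3.11.15 (numpy 2.4.6, scipy 1.17.1, pandas 2.3.3, matplotlib 3.10.9) and R 4.3.3 (edgeR 4.0.16, DESeq2 1.42.0).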

Additional observations from a re-analysis of the deposited data

How the results depend on the processing

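No paired analysis was possible because each time point has 1 library. Without replicates the assumed spread decides the stage I calls: with edgeR's exact test and a BCV of 0.2 the FDR was 0.0478 for SREBF1 (log2 ratio 1.34) and 0.0836 for INSIG1 (1.24), and with a BCV of 0.4 or a 3-fold threshold neither was called. From −35 d to +3 d both were called higher with TMM (1.16 and 1.19), DESeq2 size factors (1.18 and 1.21) and totals without genes over 1% (1.03 and 1.06). With totals of listed genes SREBF1 (−1.04) and SCD (−1.11) were called lower in stage II. FASN from −35 d to +3 d turned from −0.02 to 0.48, 0.50 and 0.35 under the first 3 of these scalings. PPARGC1A was called under none, and under a minimum of 5 TPM it has no value. Changes in tag ratios are free of the scaling. Over all genes, 813, 1189 and 1672 were called in stage I, stage II and from −35 d to +3 d. With BCV 0.2 they were 54, 160 and 156, with BCV 0.4 they were 3, 8 and 14, and with 3-fold 317, 440 and 659. With totals of listed genes 2053 were called in stage II and 3019 from −35 d to +3 d, where TMM gave 1004, DESeq2 992 and totals without genes over 1% 1039. Of the calls 71.1%, 77.0% and 87.5% were lower, but 48.1%, 45.5% and 44.2% under TMM. In the lists, BCV 0.2 left calls in stage I of 0 SREBP processing, 2 fatty acid, 0 sterol and 0 PPARGC1A genes. In stage II it left 2 fatty acid genes and 1 sterol gene, where TMM gave 5 sterol and 3 PPARGC1A genes. From −35 d to +3 d TMM gave 2 SREBP processing, 2 fatty acid and 1 sterol gene, and BCV 0.2 gave 0, 2 and 0, with 0 PPARGC1A genes.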
